A study of Mus musculus with 12 samples.

Results

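Astrocytes from the brain of an amyloid mouse model and wild-type astrocytes given amyloid peptide in culture were compared with each other directly. The 2 AD model and 2 Aβ-treated libraries are 4 of the 12 RNA-seq libraries of the series, and the 2 wild-type groups that served as their controls (2 libraries each) are shown beside every gene named. Of 54532 genes in the expression table, 12807 reached at least 1 FPKM (fragments scaled to the length of the gene and the size of the library) in at least 2 of the 4 exposed libraries and were tested, 11638 of them protein coding. The filter itself selects for a difference in genes that passed through 1 exposed group alone, which were 206 through the AD model (4 later called higher there) and 148 through the Aβ-treated cells (9 later called higher there).

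All cells were cultured astrocytes of adult C57BL/6 mice, prepared from cortex and hippocampus together with trypsin and papain, and no sorting step is described, although the label of the treatment calls the cells purified. AD model cells came from 6-month-old mice (5 months in the series text, for model and control alike) with the genotype label "5X APP Alzheimer's mice model" and were left untreated, and AD control cells came from wild-type mice of the same age. Aβ-treated cells came from wild-type mice of 2 months and received 20 µM of A-beta 1-42, the 42-residue amyloid peptide, for 72 h (73 h in the label of 1 sample), and Aβ control cells were untreated cells of wild-type mice of 2 months. The promoter of the transgene, and whether the libraries of a group are separate mice or cultures, is not stated in the labels, so p-values measure the spread between these libraries, which may be technical. The other 4 libraries, 2 labelled Ogt cKO and 2 labelled as its control, came from untreated 4-month-old mice that share the genotype label Glast-CreERT2::Ogtfloxp/Y, and they enter the estimate of spread. Experiment, age, genotype and length of exposure change together between the exposed groups and cannot be told apart.

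As background, astrocytes that meet amyloid or inflammatory signals enter a reactive state in which interferon and NF-κB signalling raise antiviral, antigen-presentation and chemokine genes. Type I interferon acts through a transcription factor complex on a promoter element called the ISRE, and NF-κB acts on its own consensus site. Dissociated adult brain also carries microglia, vascular cells, meningeal fibroblasts and oligodendrocytes into such cultures, each with marker genes of its own.

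Because many genes that rose alike in both exposures are interferon-induced, the promoters with the most ISRE core matches among the named genes are shown. They are RefSeq promoters (build GRCm38.p6, 250 bases before to 50 after the start, printed 5′ to 3′ on the gene's strand) of Gbp3 (chr3:142559794-142560093, + strand), Ifit3b (chr19:34607707-34608006, + strand) and Oas1a (chr5:120907476-120907775, − strand), which rose to an equal level in both exposures. Fbn1 (chr2:125506389-125506688, − strand) is shown beside them as the 1 gene with a match that was higher in the AD model. Capitals mark the ISRE core, searched as GAAA, any 2 bases, then GAAA, on both strands.
Gbp3: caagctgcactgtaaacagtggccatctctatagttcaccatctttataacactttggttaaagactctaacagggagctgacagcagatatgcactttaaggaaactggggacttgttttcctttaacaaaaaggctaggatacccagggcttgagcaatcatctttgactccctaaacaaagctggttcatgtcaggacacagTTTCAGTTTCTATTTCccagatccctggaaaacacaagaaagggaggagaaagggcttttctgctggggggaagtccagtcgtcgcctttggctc
Ifit3b: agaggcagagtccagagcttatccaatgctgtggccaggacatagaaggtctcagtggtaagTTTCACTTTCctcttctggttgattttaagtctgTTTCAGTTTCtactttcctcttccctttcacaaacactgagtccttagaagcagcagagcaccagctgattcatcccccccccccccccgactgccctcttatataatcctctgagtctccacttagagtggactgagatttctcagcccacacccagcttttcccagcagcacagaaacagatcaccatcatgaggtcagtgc
Oas1a: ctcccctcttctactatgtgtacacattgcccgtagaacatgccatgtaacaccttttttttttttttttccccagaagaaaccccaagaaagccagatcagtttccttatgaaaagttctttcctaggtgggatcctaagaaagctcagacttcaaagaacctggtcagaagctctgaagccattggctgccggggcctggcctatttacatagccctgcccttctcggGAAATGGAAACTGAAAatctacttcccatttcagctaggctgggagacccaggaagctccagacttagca
Fbn1: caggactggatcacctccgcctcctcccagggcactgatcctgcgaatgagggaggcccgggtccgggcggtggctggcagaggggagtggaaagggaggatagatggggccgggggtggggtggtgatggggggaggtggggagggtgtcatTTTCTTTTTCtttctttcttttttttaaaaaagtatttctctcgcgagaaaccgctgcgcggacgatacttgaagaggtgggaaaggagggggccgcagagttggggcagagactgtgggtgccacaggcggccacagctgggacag
Gbp3 and Oas1a each hold 2 overlapping matches, Ifit3b 2 separate ones and Fbn1 1, and the matches of Gbp3 and Oas1a begin within 45 bases of the start. A promoter was found for 28 of the 43 genes named by size of difference, shared rise or fall, or difference of changes, and the other 24 of those 28 held neither motif. The ISRE core stood in 3.44% of all 32851 promoters, in 3.16% of those of the genes tested (378 of 11979), in 10.1% of those of genes that rose to an equal level in both exposures (76 of 752) and in 55.6% of those of the interferon-stimulated list (15 of 27). The NF-κB consensus stood in 4.51% of all promoters and in 5.45% of those of the genes tested (653 of 11979). It stood in 9.04% of those of the equal rises (68 of 752) and in 56.7% of those of the NF-κB list (17 of 30). A match is a description of these letters and not a bound site.

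Each exposed library held between 16418852 and 18285286 reads, so 3 reads on a gene of 1 kb amount to 0.165 to 0.177 FPKM. The 2 AD model libraries were not alike. AD model replicate 1 correlated with the Aβ-treated libraries at r = 0.972 and 0.966 across genes and with AD model replicate 2 at only 0.937, while the Aβ-treated pair reached 0.984 (genes are not independent replicates). The median difference between replicates was 0.294 on the log2 scale in the AD model, 0.281 in the AD control, 0.151 in the Aβ-treated and 0.163 in the Aβ control libraries. Counts that moved by over 1.5 times without 1 of the AD model libraries are given beside the list they belong to. When 1 library of a group is left out, the other is assumed to vary like the remaining groups.

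Few genes were called different between the exposed groups. At an adjusted p under 0.05 (limma on log2(FPKM + 1), 12 libraries sharing 1 estimate of the spread), 14 genes were higher in the AD model (0.109% of those tested) and 21 were higher in the Aβ-treated cells (0.164%). Far more were called between their wild-type controls, with 2125 genes higher in the AD control (16.6%) and 2060 higher in the Aβ control (16.1%). The median absolute log2 difference was 0.201 between the exposed groups and 0.389 between the controls. Of the 15 pairs of the series' 6 groups, this pair gave the fewest called genes, followed by the Ogt cKO against the Aβ control with 38 (0.297%). The median absolute difference of that other pair was 0.145, smaller than here.

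Because a missed threshold does not show that levels are alike, equality was tested too. A gene was called equal where 2 one-sided tests placed its difference within 1 on the log2 scale (2-fold) in either direction after adjustment. By that test 10611 genes (82.9%) had equal levels in the AD model and the Aβ-treated cells, and 7998 (62.5%) in the 2 controls. Since low values lie close together on this scale, the share was also taken over the 7289 genes whose mean reached 5 FPKM in both exposed groups: 85.5% were equal, 11 differed and 1043 were called neither way. Of the 4185 genes that differed between the controls, 3666 (87.6%) were equal in the exposed groups and 13 differed there.

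The count of different genes depended on which AD model library was used. Without AD model replicate 1, 243 genes were higher in the AD model and 688 in the Aβ-treated cells, and all 35 reported genes were among them. Without AD model replicate 2 the counts were 4 and 7, and 9 of the 35 were kept. With the 4 exposed libraries fitted alone, or the 8 libraries of both experiments, limma called 0 genes, with 1284 and 1443 genes at an unadjusted p under 0.05 (2186 with all 12). The direction of the 35 genes could not change in these fits, so it is no check. Fitting fewer groups leaves the exposed means as they were, and the exposed pairs of these genes did not overlap.

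Genes that rose in both exposures to an equal level included interferon-induced genes such as Irf7, Usp18 and Oas1a, the chemokine Ccl2, the scavenger receptor Marco and the lipocalin Lcn2. Against their own controls, 1384 genes rose in the AD model (10.8%) and 2933 in the Aβ-treated cells (22.9%), and 857 (6.69%) and 1918 (15.0%) fell. Rises common to both numbered 998, which is 72.1% of the AD model rises and 34.0% of the Aβ rises. Of these, 735 had equal levels in the exposed groups (5.74% of genes tested), 8 differed and 255 were called neither way. Common falls numbered 516, which is 60.2% and 26.9% of the falls of each experiment, and 438 of them ended at equal levels (3.42% of genes tested).

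Irf7, the transcription factor that amplifies the type I interferon response, was at 112 and 143 FPKM in the AD model and at 114 and 114 in the Aβ-treated cells. Its controls stood at 1.89 and 0.795 (AD) and 1.68 and 1.78 (Aβ). Every exposed library was far above every control, and the exposed pairs overlapped. The log2 rise was 5.81 ± 0.31 (SE) in the AD model and 5.4 ± 0.31 with peptide (adjusted p 7.0e-06 and 9.4e-06), and the exposed levels differed by 0.15 (95% interval −0.54 to 0.84). Usp18, the protease that removes ISG15 from proteins, reached 81.4 and 85.0 FPKM in the AD model and 76.1 and 73.6 with peptide, from controls of 2.06 and 1.00 (AD) and 1.63 and 1.40 (Aβ). Oas1a, a sensor of double-stranded RNA, reached 74.1 and 80.2 against 77.4 and 72.9, from 2.89 and 0.81 (AD control) and 1.69 and 2.26 (Aβ control). The exposed pairs overlapped for Oas1a, and for Usp18 the AD model pair lay slightly higher (0.15, 95% interval −0.40 to 0.70). In what follows, pairs of control values are given with the AD control first and the Aβ control second.

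Ifit3b, an antiviral effector whose promoter with 2 ISRE core matches is printed above, was at 76.5 and 80.4 FPKM in the AD model and 66.3 and 56.3 with peptide, and its controls were at 2.24 and 1.30 (AD) and 0.621 and 1.5 (Aβ). Gbp3, an interferon-induced GTPase that attacks microbes inside cells, was at 65.1 and 75.3 against 52.6 and 47.4, and its controls were at 2.75 and 1.81 (AD) and 0.580 and 0.917 (Aβ). In both genes the AD model libraries lay above the peptide libraries without overlap, yet the difference stayed within the 2-fold margin: 0.36 (95% interval −0.17 to 0.88) for Ifit3b and 0.48 (0.01 to 0.94) for Gbp3. The Gbp3 controls differed as well, by 0.90 ± 0.21 in the same direction (adjusted p = 0.012).

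Marco, a scavenger receptor of macrophages, was at 40.3 and 59.3 FPKM in the AD model and 68.7 and 64.0 with peptide. Its controls were at 0 and 0.370 (AD) and 0.461 and 0.389 (Aβ). The peptide libraries were higher without overlap, by 0.43 on the log2 scale (95% interval −0.92 to 0.05 for AD model minus Aβ-treated). Ccl2, which draws monocytes, was at 422 and 539 against 570 and 717, from 11.3 and 10.1 (AD control) and 26.9 and 15.3 (Aβ control). Its AD model levels were also below both peptide levels, and its controls differed in the same direction (−0.87 ± 0.29, adjusted p = 0.0498). Lcn2, the iron-carrier protein lipocalin-2 that marks reactive astrocytes, was at 259 and 535 against 377 and 407, from 15.7 and 11.2 and from 16.4 and 13.3. The 8 rises named here (the largest by rule) kept their calls against both controls in all 208 gene-by-alternative fits run for each experiment.

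By list, the interferon response was common to both exposures in every member measured. The 34 interferon-stimulated genes measured were all higher than control in both experiments (34 rises in each), 22 had equal levels and 0 were called different (82.9% equal and 0.273% different among all genes tested). The median difference was 0.28 towards the AD model, beside −0.02 over all genes. Isg15, the ubiquitin-like protein of the response, was at 530 and 455 FPKM in the AD model and 404 and 426 with peptide, from 25.3 and 6.40 (AD control) and from 13.9 and 12. All 15 interferon-induced GTPases (Gbp and Irg families) rose in both exposures, 10 were equal and 0 different, with a median of 0.48 towards the AD model. The offset was larger without replicate 1 (medians 0.56 and 0.41) than without replicate 2 (0.21 and 0.13). Without replicate 1, 5 of the 15 GTPases and 2 of the 34 interferon-stimulated genes were called higher in the AD model, and without replicate 2 none was. The equal counts of the GTPases and of the interferon-stimulated genes were 6 and 13 without replicate 1 and 13 and 28 without replicate 2.

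Genes of MHC class I presentation, which display peptides to CD8 T cells, were nearly all at equal levels. Of 19 members, 18 rose in the AD model and 19 with peptide, and 18 had equal levels, with a median difference of −0.02. Over all genes tested, 10.8% rose in the AD model, 22.9% rose with peptide and 82.9% were equal, and class II below stood nearer to these shares. B2m, the invariant light chain, was at 2387 and 3338 FPKM in the AD model and 3181 and 2691 with peptide, from 411 and 382 (AD control) and 416 and 420 (Aβ control). Tap1, a subunit of the peptide transporter, was at 28.9 and 40.7 against 28.1 and 31.9, from 6.36 and 6.99 and from 7.62 and 7.48. H2-Q6 was the member not called equal, at 86.1 and 48.7 FPKM in the AD model and 113 and 140 with peptide, from 0.610 and 0.0244 and from 0.936 and 0.608 (−0.94, adjusted p = 0.15), and reads of the near-identical H2-Q genes may be split among copies. Of 8 measured genes of MHC class II and costimulation, 6 were equal, and 5 rose in the AD model (2 without AD model replicate 2) and 3 with peptide.

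NF-κB genes rose in most cases, with more spread. Over all genes tested, 10.8% rose in the AD model, 22.9% rose and 15.0% fell with peptide, and 82.9% were equal. Of 36 NF-κB targets and parts, 30 rose in the AD model, 25 rose and 1 fell with peptide, 19 were equal and 1 (Cxcl2) was different, whereas without AD model replicate 1 5 were called higher and 6 lower in the AD model. Nfkbia, the inhibitor that NF-κB induces against itself, was at 110 and 219 FPKM in the AD model and 129 and 157 with peptide, from 24.2 and 21.5 (AD control) and 33.4 and 31.0 (Aβ control). Of 21 chemokines, 17 rose in each experiment, but only 4 (Ccl2, Ccl7, Ccl8 and Cx3cl1) had equal levels, beside 82.9% over all genes, and the median was −0.46. When AD model replicate 1 was left out, 1 was equal, 2 were called higher and 7 lower in the AD model, and without replicate 2, 6 were equal and 0 were called.

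Cxcl2, which recruits neutrophils, was the chemokine called different. It was at 28.8 and 29.7 FPKM in the AD model and 49.4 and 60.3 with peptide, and its controls were at 0.234 and 0.32 (AD) and 1.14 and 0.863 (Aβ). The difference was −0.88 ± 0.14 (adjusted p = 0.047), and the control difference had the same direction (−0.65, adjusted p = 0.0090). That control difference was no longer called without Aβ control replicate 1 (−0.55, adjusted p = 0.071). Cxcl1 (115 and 140 against 243 and 255 FPKM, all controls at or below 0.869) and Cxcl5 (79.7 and 57.7 against 106 and 145, all controls at or below 0.0546), which act on the same receptor, also had lower AD model libraries without overlap. Their adjusted p were 0.091 and 0.078. Cxcl10, a T-cell chemokine induced by interferon, stood the other way at 77.2 and 180 against 43.1 and 28.1, with controls from 0.447 to 1.91 (1.73, adjusted p = 0.083).

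**Figure D1:**
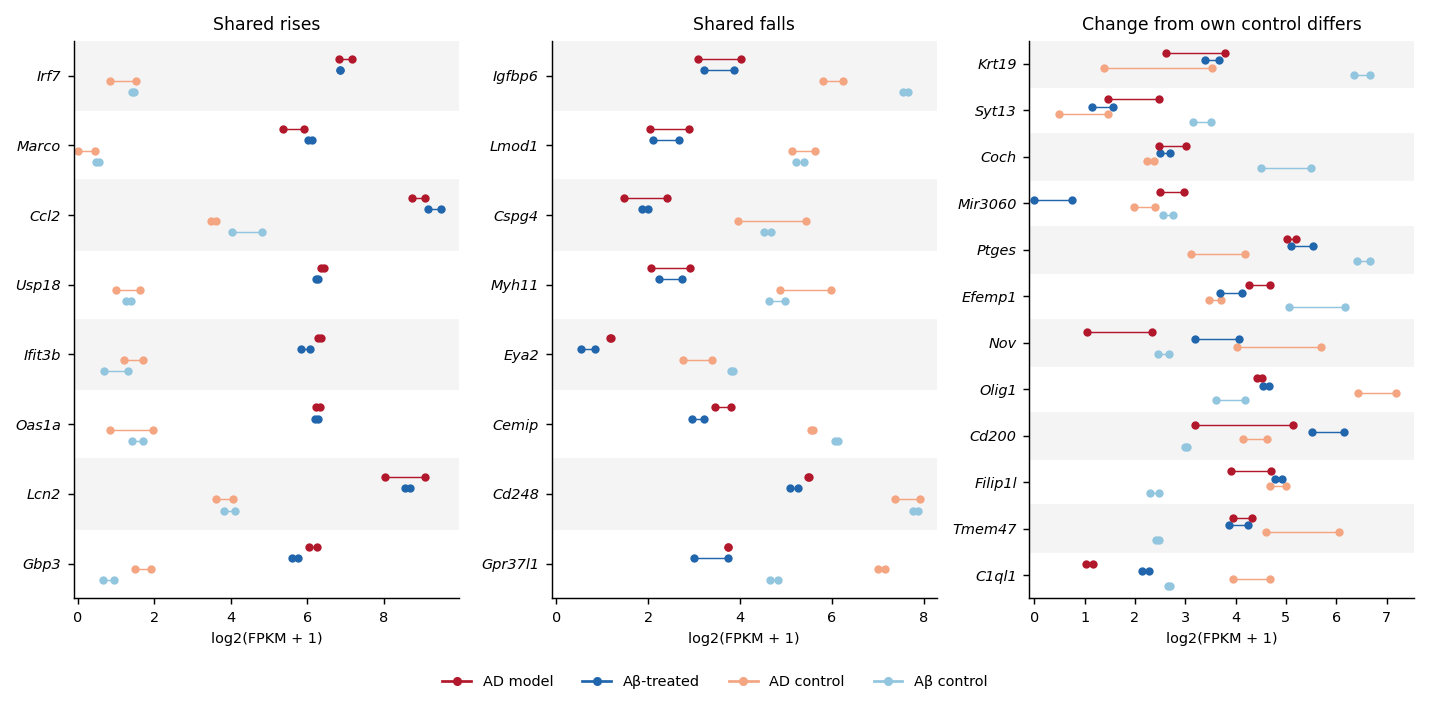
FPKM on a log2(FPKM + 1) axis in each of the 8 libraries of both experiments for the 8 named equal rises, the 8 named equal falls and the named genes whose change from the own control differed. In the first panel the 4 exposed libraries lie far above the 4 controls (Irf7 at 112 to 143 FPKM against 0.795 to 1.89), in the second far below.

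Genes that fell in both exposures to an equal level included contractile and mural-cell genes. Lmod1, an actin nucleator of smooth muscle, was at 6.42 and 3.13 FPKM in the AD model and 5.4 and 3.33 with peptide, from 48.8 and 34.2 (AD control) and 41.0 and 36.4 (Aβ control). Myh11, the myosin heavy chain of smooth muscle, was at 6.54 and 3.15 against 5.63 and 3.74, from 62.4 and 28.4 and from 23.8 and 30.5. Cspg4, the NG2 proteoglycan of pericytes and oligodendrocyte precursors, was at 4.28 and 1.79 against 3.01 and 2.62, from 42.1 and 14.6 and from 24.4 and 21.9. In all 3 genes every exposed library was below every control and the exposed pairs overlapped. Their log2 falls ran from −2.95 to −2.75 in the AD model and from −2.91 to −2.32 with peptide, and their direct differences were 0.07, −0.00 and 0.01.

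Cd248, endosialin of stromal and mural cells, was at 44.1 and 43.6 FPKM in the AD model and 37.2 and 33.0 with peptide, from 239 and 165 (AD control) and 233 and 215 (Aβ control). Cemip, a hyaluronan-degrading factor, was at 9.97 and 13 against 8.28 and 6.74, from 45.5 and 46.8 and from 69.4 and 66.3. The AD model libraries of both were higher without overlap, by 0.32 (95% interval −0.25 to 0.88) and 0.55 (0.11 to 0.98). Eya2, a transcriptional co-activator and phosphatase, was at 1.26 and 1.30 against 0.458 and 0.794, from 5.72 and 9.52 and from 13.4 and 13, so its exposed values are low and lie close on this scale. Igfbp6, which binds insulin-like growth factor 2, was at 15.1 and 7.46 against 8.23 and 13.5, although its controls differed from each other (54.7 and 74.5 in the AD control, 201 and 186 in the Aβ control, adjusted p = 0.015).

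Gpr37l1, an astrocyte receptor, reached equal levels in both experiments from unequal controls. It was at 12.2 and 12.4 FPKM in the AD model and 12.3 and 6.96 with peptide, and its controls were at 127 and 142 (AD) and 24.2 and 27.5 (Aβ). The controls differed by 2.34 ± 0.22 (adjusted p = 0.00026), the exposed levels by 0.38 (95% interval −0.12 to 0.87). The 8 named falls kept their calls in all 205 gene-by-alternative fits run for each experiment.

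By list, 9 of 13 pericyte and smooth muscle markers fell in the AD model and 11 with peptide (6.69% and 15.0% of all genes fell), 5 were equal (82.9% of all genes), and 0 differed. With either AD model library left out in turn, 1 was equal, and the median difference was −0.45 without replicate 1 and 0.47 without replicate 2. The summed FPKM of all 16 listed markers, measured or not, were 1104 and 268 in the AD model and 744 and 671 with peptide. They were 5393 and 2314 in the AD control and 5905 and 5171 in the Aβ control. In such bulk libraries fewer cells of a type and less RNA per cell cannot be told apart. Of 27 collagen and matrix genes, 16 fell in the AD model and 15 with peptide, 7 were equal, and 1 (Fbn1) was different. Those that fell in the AD model numbered 19 without its replicate 1 and 8 without its replicate 2, and those equal 4 and 1. Fibroblast markers, of which 13 were measured, fell in 6 and 8 cases and were equal in 2 (1 without AD model replicate 1).

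Cholesterol synthesis stood at equal levels throughout. All 23 measured genes were equal between the exposed groups (82.9% over all genes), with a median of 0.03, while 12 were higher in the Aβ control and 1 in the AD control. From those controls 10 fell in the AD model and 20 with peptide, beside 6.69% and 15.0% of all genes. Cyp51, a sterol demethylase, was at 8.83 and 7.34 FPKM in the AD model and 7.64 and 4.79 with peptide, from 25.6 and 17.0 (AD control) and 33.1 and 36.5 (Aβ control). Sqle, which makes squalene epoxide, was at 6.63 and 7.54 against 6.12 and 4.67, from 13.8 and 16.3 and from 15.3 and 17.7. Without AD model replicate 1 or 2 the equal count was 19 or 21. All 34 oxidative phosphorylation genes were equal as well (median −0.19), although 26 had both AD model libraries below both peptide libraries and 1 above (25.4% and 19.5% of all genes), with 13 lower than control after peptide and 0 in the AD model.

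Cell cycle genes had unequal controls. Of 33 genes, 29 were equal between the exposed groups (median −0.04), beside 82.9% of all genes. Between the controls 23 were higher in the Aβ control than in the AD control (median −1.36), beside 16.1% of all genes. From these controls 21 rose in the AD model (10.8% of all genes). With peptide 6 rose and 2 fell, which is no more than the 22.9% and 15.0% of all genes. Rrm2, a ribonucleotide reductase subunit needed for DNA synthesis, was at 42.3 and 31.8 FPKM in the AD model and 28.9 and 34.5 with peptide, from 11.5 and 8.43 (AD control) and 47.9 and 48.4 (Aβ control). Cdk1, the kinase that starts mitosis, was at 16.4 and 9.11 against 11.4 and 14.3, from 5.14 and 3.58 and from 17.9 and 16.0. For both genes the exposed pairs overlapped while the Aβ control was more than 3 times the AD control. Without AD model replicate 1, 11 of the 33 rose in the AD model and 19 were equal (median −0.34), and without replicate 2, 29 rose and 20 were equal (median 0.35).

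Of 22 genes of amyloid processing and clearance, 18 had equal levels, a share close to the 82.9% of all genes, and 0 differed. App, the amyloid precursor protein gene, was at 73.8 and 113 FPKM in the AD model and 85.8 and 87.4 with peptide, and at 89.7 and 124 (AD control) and 72.4 and 79.9 (Aβ control). Its difference was 0.08 (95% interval −0.41 to 0.57), and whether it includes reads of the transgene is not given in the sources used here. Apoe, the main lipid carrier made by astrocytes, was equal at 485 and 669 against 397 and 595, with controls at 752 and 1646 (AD) and 464 and 693 (Aβ). Lipid transport genes were equal in 11 of 15 (6 without AD model replicate 1), Nrf2 antioxidant targets in 14 of 21 and unfolded-protein response genes in 13 of 16, none of them above the share of all genes.

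**Figure D2:**
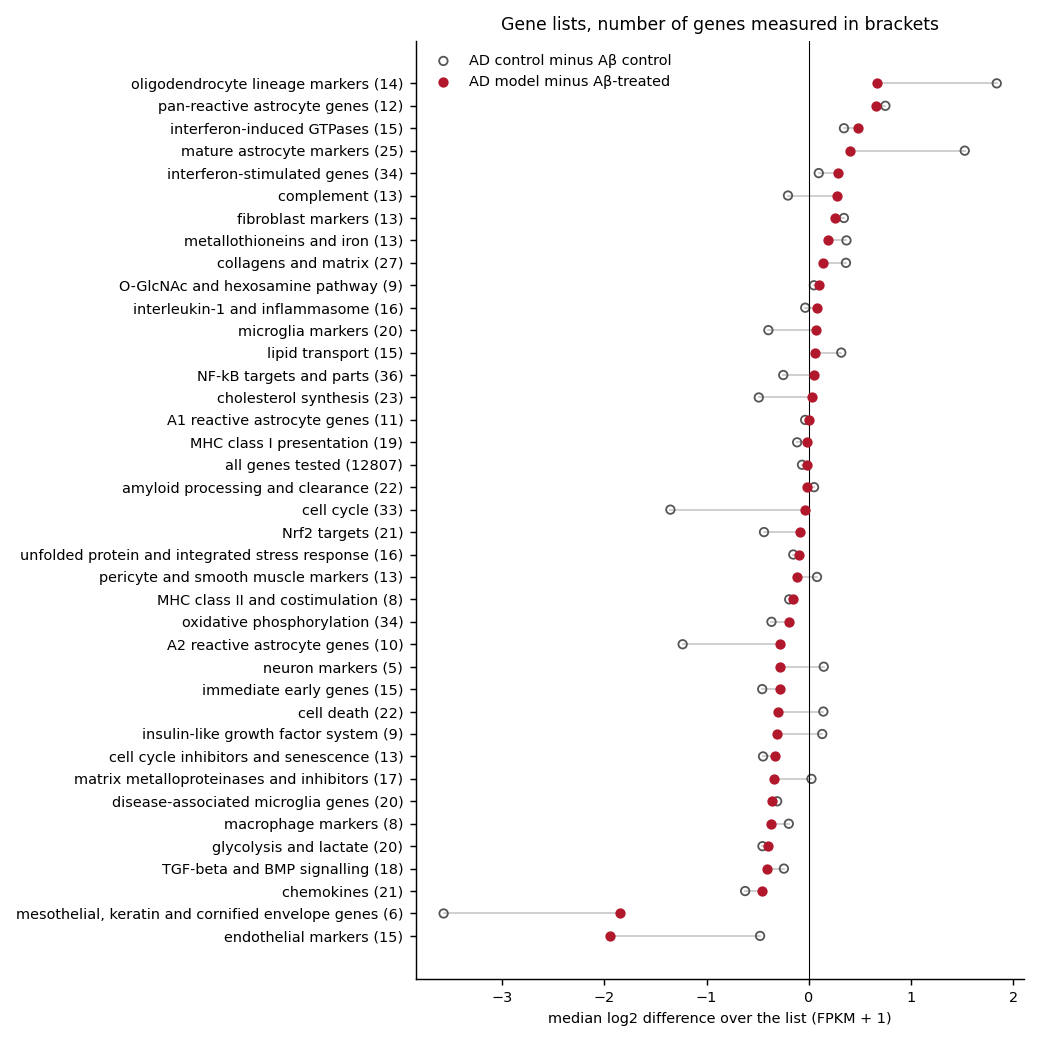
Median log2 difference of each gene list between AD model and Aβ-treated cells, beside the median between the 2 controls. MHC class I (−0.02), cholesterol (0.03) and cell cycle (−0.04) lists lie near 0 in the exposed groups, the interferon-induced GTPases lie at 0.48, the cell cycle list lies at −1.36 in the controls, and the endothelial list lies lowest in the exposed groups at −1.95.

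Turning to levels that differed, 26 of the 35 genes are established genes, 10 higher in the AD model and 16 with peptide, each with at least 168 reads over the 4 exposed libraries. The other 9 are small RNAs or predicted genes with at most 50 reads in any exposed library. Of the 14 genes higher in the AD model, 8 (57.1%) were also called higher in the AD control, and 3 differed in the change from the own control with equal controls. Of the 21 higher with peptide, these counts were 4 and 14. Only 7 of the 35 kept their call without any 1 of the 8 libraries of both experiments: Cyp1a1, Tspan8, 3 microRNA genes and 2 predicted genes. All of these but Cyp1a1 reached 1 FPKM in only 1 of the exposed groups, so the filter had selected them for a difference, as it had 13 of the 35. The share of calls higher in the AD model was 40% here and 81.8% (9 of 11) with voom on the recovered reads, which also moved the median of all genes from −0.02 to 0.10 on the log2 scale. The control differences of Ehd4, Srgn, Nr2f1 and Shisa3 were not called without Aβ control replicate 1 (adjusted p 0.061, 0.11, 0.11 and 0.085).

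Among the genes higher in the AD model were secreted and matrix proteins and a nuclear receptor. Fibin (chr2:110360917-110363183), a secreted factor, was at 7.59 and 8.31 FPKM in the AD model and 0.625 and 1.58 with peptide, with controls at 27.5 and 22.8 (AD) and 8.43 and 6.65 (Aβ). It fell from control in both experiments, and the exposed difference (2.13 ± 0.22, adjusted p = 0.012) had a counterpart in the controls (1.62 ± 0.22, adjusted p = 0.0013). Fbn1 (chr2:125300594-125507993), fibrillin-1 of the elastic microfibrils, was at 21.7 and 18.3 against 6.58 and 8.47, from 65.2 and 44.8 and from 40.1 and 43.0. Its difference was 1.30 ± 0.19 (adjusted p = 0.037), with 0.37 ± 0.19 between the controls (adjusted p = 0.15).

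Sfrp1 (chr8:23411502-23449632), a secreted inhibitor of Wnt ligands, was at 29.9 and 32.4 FPKM in the AD model and 14.7 and 9.27 with peptide, and at 17.3 and 18.5 (AD control) and 10.4 and 11.8 (Aβ control). It differed by 1.34 ± 0.21 (adjusted p = 0.047) and by 0.64 ± 0.21 between the controls (adjusted p = 0.041). Dkk3 (chr7:112116017-112159057), a secreted protein of the Dickkopf family, was at 26.0 and 26.3 against 13 and 10.6, from 57.5 and 56.9 and from 34.4 and 30.8. Shisa3 (chr5:67607882-67623552), which holds Wnt and FGF receptors back in the endoplasmic reticulum, was at 21.3 and 28.1 against 10.7 and 11.2, from 1.03 and 0.610 and from 0.124 and 0.133. It was the gene that rose strongly in both experiments, by 3.81 ± 0.17 and 3.40 ± 0.17, and still ended 1.09 ± 0.17 higher in the AD model (adjusted p = 0.046). No exposed libraries of these 3 genes overlapped, which was a condition for naming them.

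Nr2f1 (chr13:78188973-78199757), an orphan nuclear receptor of cortical patterning, was at 8.73 and 6.58 FPKM in the AD model and 2.91 and 3.36 with peptide, from 12.1 and 13.8 (AD control) and 6.96 and 8.55 (Aβ control), and fell in both experiments. Vgll3, a cofactor of TEAD transcription factors, was at 18.3 and 19.0 against 8.98 and 9.55, from 26.7 and 28.3 and from 20.6 and 22.7. Dclk1, a microtubule-associated kinase, was at 3.75 and 4.16 against 1.85 and 1.09, from 4.25 and 4.22 and from 1.29 and 1.13, which means that its control difference (1.25, adjusted p = 0.00078) was as large as its exposed one (1.02 ± 0.15, adjusted p = 0.046). Ptpn13, a tyrosine phosphatase, was at 2.58 and 2.67 against 0.883 and 1.02, from 3.34 and 3.71 and from 1.40 and 1.63.

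Mir3060 (chr11:4139364-4139446), the microRNA gene, was at 6.82 and 4.63 FPKM in the AD model and 0 and 0.675 with peptide, with controls at 2.92 and 4.29 (AD) and 5.70 and 4.86 (Aβ). These values rest on 10, 7, 0 and 1 reads over a gene shorter than a usual fragment, so the fitted difference (2.36 ± 0.26, adjusted p = 0.013) is not a fold. Of the exposed groups, only the AD model reached 1 FPKM, so the filter had selected Mir3060 for a difference.

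Genes higher with peptide included a xenobiotic enzyme, a phagocytic receptor and proteins of vesicle traffic. Cyp1a1 (chr9:57687928-57703824), the P450 enzyme induced by the aryl hydrocarbon receptor, was at 1.34 and 1.10 FPKM in the AD model and 10.6 and 7.25 with peptide, with controls at 0.413 and 0.0183 (AD) and 0.637 and 0.558 (Aβ). The difference was −2.14 ± 0.20 (adjusted p = 0.0078), and the rise from control was 2.62 ± 0.20 with peptide and 0.89 ± 0.20 in the AD model, a difference of −1.73 ± 0.28 (adjusted p = 0.012). Mertk (chr2:128698956-128802894), a receptor through which astrocytes and microglia engulf debris, was at 19.5 and 16.0 against 40.0 and 39.4, from 5.04 and 4.56 and from 5.39 and 7.08. It rose in both, by 1.69 ± 0.14 and 2.50 ± 0.14, and ended −1.12 ± 0.14 apart (adjusted p = 0.026). The test of its 2 rises against each other gave an adjusted p of 0.0502, which missed the threshold.

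Ehd4 (chr2:120089175-120154606), a factor of endosomal recycling, was at 39.0 and 32.6 FPKM in the AD model and 73.4 and 84.0 with peptide, from 19.1 and 16.5 (AD control) and 31.4 and 27.8 (Aβ control). Srgn (chr10:62493833-62527451), the serglycin proteoglycan core of secretory granules, was at 30.1 and 33.6 against 68.0 and 70.4, from 7.58 and 5.79 and from 9.64 and 10.1. Both rose in each experiment, both differed by −1.12 ± 0.14 and −1.10 ± 0.15 (adjusted p 0.022 and 0.030), and both were also lower in the AD control than in the Aβ control. Hid1 (chr11:115347707-115367756), which serves dense-core vesicle sorting, was at 8.0 and 6.01 against 16.0 and 22.4, from level controls of 7.18 and 6.49 and of 6.75 and 5.15. Its change from control was 0.02 ± 0.21 in the AD model and 1.53 ± 0.21 with peptide (difference adjusted p = 0.021).

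Npr1 (chr3:90450591-90465866), the atrial natriuretic peptide receptor, was at 1.76 and 0.850 FPKM in the AD model and 4.90 and 8.73 with peptide, with controls at 0.291 and 0.128 (AD) and 0.408 and 0.457 (Aβ). Exoc3l2 (chr7:19463331-19496762), an exocyst-related gene, was at 1.03 and 0.0410 against 4.16 and 6.02, from 0.166 and 0.152 and from 0.516 and 0.387. Ces2e (chr8:104926260-104934672), a carboxylesterase, was at 1.68 and 0.244 against 6.43 and 8.75, from 0.112 and 0.0943 and from 0.438 and 1.07. In all 3 genes AD model replicate 1 lay between replicate 2 and the peptide libraries. Their differences were −1.75 ± 0.25, −2.05 ± 0.28 and −2.22 ± 0.32 (adjusted p 0.037, 0.030 and 0.040). Tmem40 (chr6:115729131-115762410), a membrane protein, was at 1.90 and 0.770 against 6.79 and 7.54 and differed in the controls too (1.5 and 0.666 against 3.87 and 3.87).

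Of the established genes at lower levels, Tspan8 (a tetraspanin) was at 0.266 and 0.0646 FPKM in the AD model and 2.81 and 2.53 with peptide, with controls at or below 0.209. Cldn6, a tight-junction claudin, was at 0.493 and 0.0319 against 2.88 and 3.68, with controls at or below 0.387. Igsf5, a junction adhesion protein, was at 0.404 and 0.218 against 1.76 and 1.98, with controls at or below 0.0605. Psma8, a proteasome subunit of the testis, was at 1.94 and 1.62 against 5.23 and 4.33, from 0.894 and 0.511 and from 1.08 and 1.19. Nr1d1, the circadian repressor Rev-erbα, showed the opposite arrangement: it was at 10.3 and 8.89 in the AD model, below its control at 18.1 and 16.8, while the peptide libraries (17.5 and 17.2) stayed level with theirs (17.4 and 16.8). Its difference was −0.80 ± 0.12 (adjusted p = 0.045), and its fall in the AD model was −0.80 (adjusted p = 0.0021). Ret, the GDNF-family receptor kinase, likewise fell in the AD model (0.519 and 0.634 from 4.05 and 3.36) and stood at 2.10 and 1.68 with peptide (control 2.38 and 2.54). Of the exposed groups, Tspan8, Cldn6, Igsf5 and Ret reached 1 FPKM with peptide alone, so the filter had selected them for a difference.

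**Figure D3:**
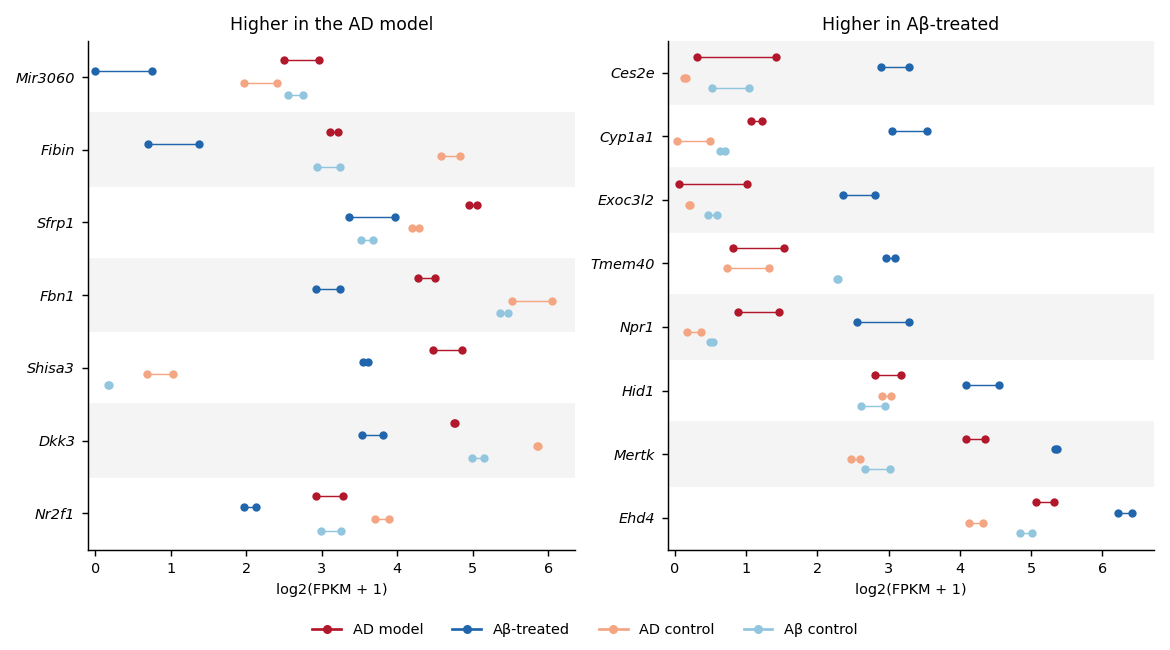
FPKM on a log2(FPKM + 1) axis in each library for the named genes higher in the AD model and those higher with peptide, with both control groups. The exposed pairs do not overlap for any gene shown, which the rule that named them required. The controls of Fibin and Dkk3 lie in the same order as the exposed pairs, whereas those of Hid1 do not.

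Endothelial markers lay lower in the AD model libraries, and lowest in replicate 2. Of 15 markers, 14 had both AD model libraries below both peptide libraries (25.4% of all genes tested lay below and 19.5% above), with a median of −1.95 and −0.48 in the controls. None passed the test of the difference, and 0 of 15 were equal. Over all genes tested, 82.9% were equal, 22.9% rose with peptide and 10.8% rose in the AD model. Pecam1, the adhesion protein of endothelial junctions, was at 64.6 and 17.7 FPKM in the AD model and 117 and 167 with peptide, with controls at 18.1 and 8.12 (AD) and 23.3 and 12.8 (Aβ). Cdh5, VE-cadherin, was at 134 and 48.6 against 237 and 340, from 65.4 and 45.4 and from 149 and 135. Their differences were −2.01 (95% interval −3.30 to −0.71, adjusted p = 0.13) and −1.80 (adjusted p = 0.082), and AD model replicate 1 lay nearer to the peptide libraries in both. Against control, 11 of 15 rose with peptide and 0 in the AD model, but 7 rose in the AD model without its replicate 2. Without AD model replicate 1, 11 were called lower than with peptide (median −2.85), and without replicate 2, 0 were (median −0.995). The summed FPKM of the markers were 647 and 239 in the AD model, 1173 and 1585 with peptide, 337 and 168 in the AD control and 473 and 362 in the Aβ control, and the part of this cell type in other results was not tested.

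**Figure D4:**
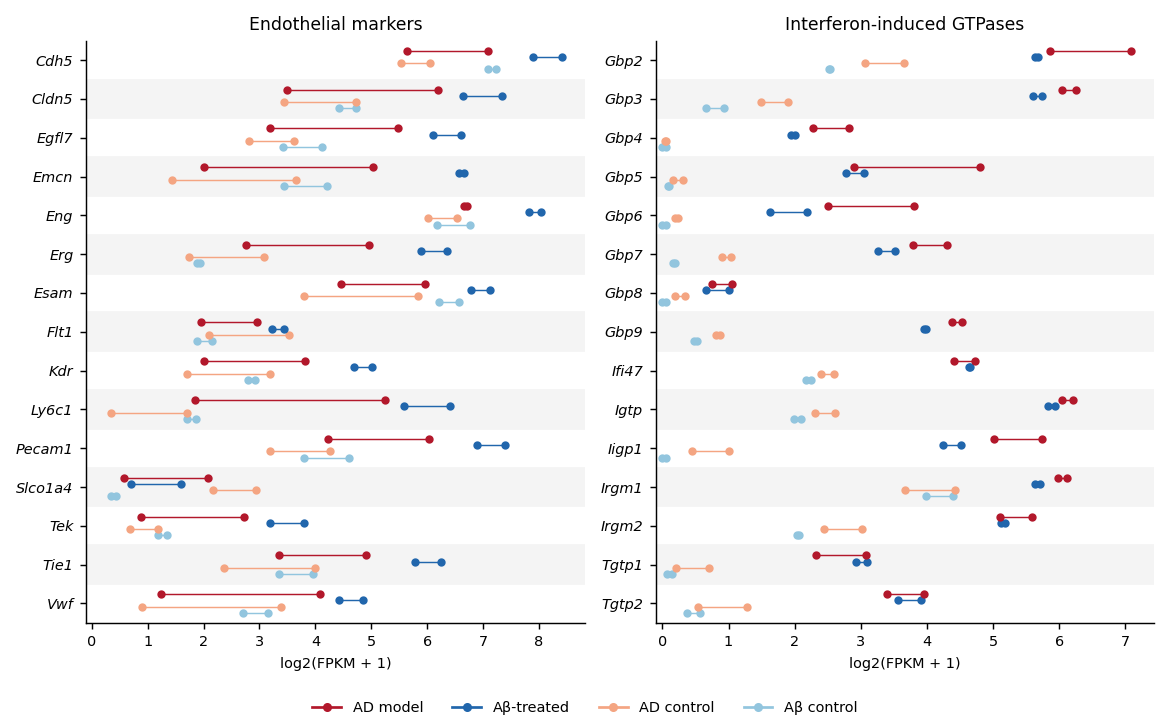
FPKM on a log2(FPKM + 1) axis of the endothelial markers and of the interferon-induced GTPases in each library. AD model replicate 2 has the lower endothelial levels of the pair (Pecam1 17.7 against 64.6 FPKM), while the GTPases are raised in all 4 exposed libraries.

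Mature astrocyte markers differed mainly between the controls, and 25 of the 31 listed passed the filter. Among the markers named here, levels in the Aβ control ran from 1.47 FPKM (Aqp4) to 62.3 FPKM (Gfap). Of 25 mature astrocyte markers measured, 11 were equal between the exposed groups (82.9% of all genes tested) and 0 were called different (0.273%). Both AD model libraries lay above both peptide libraries for 10 (19.5% of all genes) and below for 0 (25.4%). The median was 0.40, and without AD model replicate 1 it was 0.16, with 3 called higher and 1 lower. Without replicate 2 it was 0.60. Between the controls it was 1.52, where 17 were higher in the AD control (16.6% of all genes). Gfap, the intermediate filament of astrocytes, was at 125 and 155 FPKM in the AD model and 77.6 and 29.1 with peptide, with controls at 223 and 297 (AD) and 62.3 and 60.1 (Aβ). Its difference was 1.53 (95% interval 0.69 to 2.37, adjusted p = 0.092), and that of the glutamate transporter Slc1a3 was 1.28 (10.4 and 11 against 5.33 and 2.65 FPKM, from 19.1 and 22.2 and from 2.43 and 3.66, adjusted p = 0.061). From control, 9 markers fell in the AD model (6.69% of all genes), and 6 rose and 3 fell with peptide (22.9% and 15.0%). For 5 markers the change was more upward with peptide (4.87% of all genes). Aqp4, the water channel of astrocyte endfeet, was at 18.3 and 12.7 against 9.53 and 3.12, from 15.5 and 26.4 and from 1.47 and 2.31. Of 10 measured genes of the A2 reactive set, 1 (Clcf1) was equal, and of 12 pan-reactive genes 1 (Lcn2) was, without any called difference. These equal counts were 3 and 2 without AD model replicate 2.

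Markers of other cells were measured alongside. Over all genes tested, 82.9% were equal, 10.8% rose in the AD model, and 22.9% rose and 15.0% fell with peptide. Summed FPKM cover all listed markers, including those that missed the filter. Of 20 microglia markers, 14 were equal (8 without AD model replicate 1), 16 rose in the AD model (8 without its replicate 2), and 12 rose and 1 fell with peptide. The summed FPKM of the 21 listed microglia markers were 2083 and 3624 in the AD model and 3071 and 2378 with peptide. They were 815 and 981 in the AD control and 1016 and 1467 in the Aβ control. C1qa, a complement subunit made by microglia, was at 370 and 503 against 369 and 375, from 193 and 230 and from 240 and 325. The 12 listed macrophage markers, 8 of them measured, summed to 2581 and 4190 in the AD model and 5001 and 3734 with peptide. Their sums were 564.5 and 1010 in the AD control and 1631 and 2851 in the Aβ control. Of the 8, 5 rose in the AD model and 6 with peptide, and 2 were equal (1 without AD model replicate 1). Oligodendrocyte markers summed to 436 and 508 against 360 and 200, from 305 and 272 and from 79.7 and 61.4, and 4 of 14 were equal (2 without AD model replicate 1). The neuronal gene Snap25 stayed at or below 0.0375 FPKM. The part of these cells in the shared rises was not tested.

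Set against their own controls, more genes differed between the exposures than when compared directly. The change from control was larger (more upward) in the AD model for 190 genes (1.48%) and with peptide for 624 (4.87%). Most of these genes had unequal controls: 176 of the 190 and 577 of the 624 differed between the controls, beside 32.7% of all genes. In the exposed groups 160 and 552 were equal, near the 82.9% of all genes, and 4 and 14 were called different. The difference of changes is the exposed difference minus the control difference. Where exposed levels are equal, it therefore comes mainly from the controls. Olig1, a transcription factor of oligodendrocyte precursors, was at 21.9 and 20.6 FPKM in the AD model and 24.4 and 22.4 with peptide, but at 145 and 85.4 in the AD control and 17.1 and 11.1 in the Aβ control. Its exposed difference was −0.13 (95% interval −0.79 to 0.53), and its changes differed by −3.06 ± 0.41 (adjusted p = 0.0070). Ptges, which makes prostaglandin E2, showed the reverse at 31.5 and 36.0 against 33.1 and 45.5, from 17.1 and 7.64 and from 100.2 and 83.8, and its changes differed by 2.69 ± 0.43 (adjusted p = 0.011).

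Some of these genes differed in exposed level too, though not past the test. C1ql1, a secreted C1q-related protein, was at 1.04 and 1.23 FPKM in the AD model and 3.85 and 3.42 with peptide, from 24.7 and 14.5 (AD control) and 5.46 and 5.28 (Aβ control). Its direct difference was −1.12 (95% interval −1.63 to −0.60, adjusted p = 0.068). Nov, a matricellular protein of the CCN family, was at 4.06 and 1.07 against 15.8 and 8.10, from 50.5 and 15.4 and from 4.45 and 5.38 (−1.93, adjusted p = 0.13). The exposed pairs of both genes did not overlap, and their order was opposite in the controls.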

How the data were processed

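RNA of cultured adult mouse astrocytes was sequenced in 12 libraries, 2 in each of 6 groups set by the labels. The authors deposited 1 FPKM value per gene and library, with gene lengths. The build is mm10, per the submitters' processing notes, while the aligner, counter and annotation behind it are not given here in labels or headers. When a deposited FPKM was multiplied by gene length, the products came in whole steps of 1 read within a library (tolerance 0.1 of a read, met by 100% of values), so the reads per gene could be recovered: 16418852 to 18705309 in each library. The median-of-ratios size factor of the deposited values was 1.01 in every library. Reads from near-identical copies, and from overlapping or antisense genes, may be split by the authors' counting in a way not given here.

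The 12807 genes that reached 1 FPKM in 2 or more of the 4 exposed libraries were tested on log2(FPKM + 1). The fit was limma 3.58.1 (R 4.3.3) over all 12 libraries with 1 mean per group and a trend of the spread with intensity, leaving 6 residual and 2.93 prior degrees of freedom. Tests were two-sided, and p-values were adjusted over all genes by Benjamini-Hochberg with a threshold of 0.05. A fold on this scale understates the change of low genes. Equality meant 2 one-sided tests of the same contrast against a margin of 1, adjusted alike. Intervals are 95% and SEs come from the fit. The fit was tested on simulated data with known changes. Read depths cover counting error only, since PCR copies are not independent molecules. Named genes are the 8 largest called in each direction (higher mean 5 FPKM or more, no overlap, no predicted name), the 8 largest equal rises and falls, the 6 largest in each direction of the difference of changes, and up to 4 per list. Also named by rule were up to 4 genes in each direction whose called difference was called likewise between the controls. A fixed list was set by name and included Gfap, Aqp4, Slc1a3, Apoe, App, C1qa, Pecam1, Snap25, Xist and Ddx3y. Other genes named were chosen after their values were seen. The members and lists were chosen with earlier results of these data known. Alternatives covered filters, pseudocounts, scalings, voom on the recovered reads, smaller sets of libraries, replicate blocks and leaving out each library. Some could hardly change a call, which raises the counts of calls kept. The changed margin alters the equality test alone, and median-of-ratios scaling divides every library by 1.01. Smaller sets of groups leave the group means, and so each direction, as they were. Ogt cKO groups entered the estimate of spread and the ranking of group pairs, and no other comparison. Promoters came from RefSeq and plots were drawn with Python 3.11.15. Values of 2 genes are not reported here.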

Additional observations from a re-analysis of the deposited data

Results flagged for a closer look

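The 12 genes below have the largest differences, in each direction, between the change from AD control to AD model and the change from Aβ control to Aβ-treated cells, and the test of that difference passed for each (limma, adjusted p from 0.0056 to 0.044). Values are AD model change minus Aβ change on the log2 scale. The AD model change was the more upward one for Krt19, an epithelial and mesothelial keratin (3.74), Syt13, a synaptotagmin (2.97), and Coch, cochlin (2.84). The same held for Mir3060 (2.82), Ptges (2.69) and Efemp1, fibulin-3 (2.61). Each of these fell with peptide (log2 change −2.98 to −1.22), while only Ptges had a called rise in the AD model (1.47). The peptide change was the more upward one for Nov (−4.23), Olig1 (−3.06), Cd200, an inhibitory ligand for myeloid cells (−3.04), and Filip1l, a filamin-binding protein (−3.01). The same held for Tmem47, a junction protein (−2.80), and C1ql1 (−2.77). Nov, Olig1 and C1ql1 fell in the AD model (−3.165, −2.34 and −3.23), without a called change with peptide. Cd200, Filip1l and Tmem47 rose with peptide (2.82, 2.47 and 1.60), without a called change in the AD model.

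Krt19 was at 12.9 and 5.15 FPKM in the AD model and 9.48 and 11.7 with peptide, and at 10.5 and 1.59 (AD control) and 80.8 and 101 (Aβ control). Coch was at 4.53 and 7.04 against 5.46 and 4.61, with controls at 4.20 and 3.68 and at 21.8 and 43.9. Syt13 was at 4.53 and 1.77 against 1.21 and 1.95, with controls at 1.77 and 0.406 and at 7.93 and 10.5. Efemp1 was at 18.3 and 24.7 against 11.8 and 16.4, with controls at 10.1 and 12 and at 32.5 and 71.3. Exposed pairs overlapped for Krt19, Coch and Syt13.

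Filip1l was at 25.1 and 13.9 FPKM in the AD model and 26.6 and 29.3 with peptide, with controls at 31.2 and 24.7 (AD) and 4.56 and 3.92 (Aβ). Tmem47 was at 18.9 and 14.4 against 17.8 and 13.6, with controls at 23.4 and 65.2 and at 4.57 and 4.36. Cd200 was at 34.0 and 8.14 against 44.5 and 70.1, with controls at 23.7 and 16.6 and at 6.96 and 7.14. The 2 AD model libraries of Cd200 differed more from each other than the peptide pair did.

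The call for Krt19 was lost in 13 alternatives and that for Cd200 in 10, with adjusted p up to 0.138 in each. With only the 8 libraries of both experiments, Syt13 (adjusted p = 0.067), Ptges (0.058), Efemp1 (0.066), Nov (0.073) and Tmem47 (0.081) were not called, and each also lost its call without Aβ-treated replicate 1 (adjusted p 0.073, 0.053, 0.069, 0.075 and 0.085). Without Aβ control replicate 1, Syt13 (0.059), Ptges (0.057), Nov (0.084) and Tmem47 (0.086) were not called, and without Aβ-treated replicate 2 Tmem47 was not (0.054). Coch, Mir3060, Olig1, Filip1l and C1ql1 kept their calls in every alternative in which they were tested.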

How the results depend on the processing

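The counts reported are 14 genes higher in the AD model, 21 higher with peptide, 10611 equal, 4185 different between the controls, 814 whose changes differed, 735 equal rises and 438 equal falls. Filters: at 1 FPKM in 2 of 12 libraries 8 were higher in the AD model; at 1 FPKM in all 4 exposed libraries 0 and 1 were higher; at 5 FPKM 4 and 4 were higher, 6568 equal, 474 rises, 2699 control and 446 change differences; with no filter 41 and 77 were higher, 27632 equal and 540 changes differed. A pseudocount of 0.1 gave 0 and 0 (2019 genes at an unadjusted p under 0.05) and 440 rises, and one of 0.5 gave 8 and 9. The 4 exposed libraries alone gave 0 and 0, and the 8 libraries of both experiments 0 and 0, with 188 falls, 2239 control and 143 change differences. Quantile normalization gave 71 and 145, voom on recovered reads 9 and 2 with 278 falls, and removing a length trend 7 higher in the AD model. Removing GC and length trends, chosen after seeing the data, gave 460 change differences. A margin of log2(1.5) left 4776 equal, 190 rises and 197 falls. Leaving out 1 library at a time gave 4 to 243 higher in the AD model, 7 to 688 higher with peptide, 430 to 707 rises, 250 to 534 falls, 1362 to 5044 control and 186 to 1483 change differences. Both extremes of the first 2 came from leaving out AD model replicate 2 and 1. All other alternatives lay within 1.5 times the reported counts.

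The labels do not say that equal replicate numbers pair the samples. Deviations of same-numbered libraries correlated at 0.59 between AD control and AD model, −0.25 between AD model and Aβ-treated and −0.20 between Aβ control and Aβ-treated. With the replicate block 7 and 14 genes were higher, 18 of them among the reported 35. A crossed block, chosen after seeing the data, gave 44 and 128.

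Among 217 gene-level results and 5537 alternatives, 5197 kept their direction and call, 246 lost the call, 94 gained one and 0 reversed. With 2 libraries a group, differences under 2-fold between the exposed groups were rarely called, so a gene called neither way is not shown to differ or to match.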

Other observations

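Matrix metalloproteinases gave wide values between the AD model libraries. Mmp13, a collagenase, was at 209 and 20.5 FPKM in the AD model and 319 and 295 with peptide, from 4.62 and 2.34 (AD control) and 3.94 and 2.35 (Aβ control), and rose from control in both (log2 3.96 and 6.24, adjusted p 0.011 and 0.00063). Mmp3, stromelysin-1, was at 16.9 and 1.80 against 76.2 and 60.5, from 12.8 and 0.509 and from 45.6 and 25.0. The complement component C3 went the other way between replicates, at 84.4 and 417 FPKM in the AD model and 64.8 and 49.2 with peptide, from 2.68 and 7.13 and from 3.51 and 4.93, and it rose from control in both (5.11 and 3.48, adjusted p 0.00082 and 0.0029). Of 17 metalloproteinases and inhibitors 5 were equal (82.9% of all genes) and 0 were called different (0.273%).

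The 6 measured mesothelial, keratin and cornified envelope genes were all higher in the Aβ control than in the AD control, with a median difference of −3.57, and 0 of 6 were equal or called different between the exposed groups (median −1.85, and −2.63 and −1.06 without AD model replicate 1 and 2). Msln, mesothelin, was at 2.52 and 1.69 FPKM in the AD model and 5.08 and 6.20 with peptide, against 3.90 and 5.49 (AD control) and 49.1 and 97.3 (Aβ control). The Y-linked gene Ddx3y was at 11.3 and 9.38 FPKM in the AD model and 9.78 and 7.86 with peptide, and at 12.3 and 12.9 in the AD control, but at 2.05 and 2.09 in the Aβ control (adjusted p = 0.00011 between controls). Xist was at or below 0.0066 FPKM in the 8 libraries.

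Gapdh was at 3.41 and 3.34 FPKM in the AD model and 48.7 and 35.2 with peptide, but at 1.60 and 29.8 in the AD control and 33.7 and 3.39 in the Aβ control. Its many pseudogene copies can take its reads, so these values are uncertain.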
